A study of Mus musculus with 18 samples.

Results

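Cytosolic ribosomal proteins are the protein parts of the ribosomes that translate messenger RNA outside mitochondria. They were read here in mouse T helper 17 (Th17) cell cultures that lacked the glucose transporter GLUT3, lacked the enzyme ATP citrate lyase, or were wild type. Members were the protein-coding rows whose symbol begins with Rpl or Rps and a digit, or is Rplp0, Rplp1, Rplp2 or Rpsa, without the Rps6k kinase genes. A level of at least 1 TPM, the share of a library's transcripts after division by gene length, was also required in at least 3 of 18 libraries. Of 91 rows that matched the symbols, 88 passed this filter, out of 14229 genes tested in the whole series. The other 3, Rps23rg1, Rpl10l and Rpl3l, reached at most 0.110, 0.0722 and 0.0938 TPM in any library. The 88 members comprised 43 large subunit proteins, 31 small subunit proteins, 3 proteins of the stalk and 11 paralogs and look-alikes. The symbols fix the membership and no measured difference was used to choose a gene, but 77 of the 88 are canonical ribosomal proteins and the 11 others should be read apart. Genes of canonical ribosomal proteins that the symbol rule misses include Fau and Rack1, which are given separately.

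The cells were naive CD4+ T cells polarised towards Th17 for 48 h and then kept for 24 h with or without acetate, a source of acetyl-CoA, at 20 mM in the sample protocols and 10 mM in the series text. They were restimulated for 5 h using PMA plus ionomycin, together with brefeldin A and monensin, which block secretion, in all 6 groups. GLUT3KO cells came from Slc2a3-fl/fl Cd4-cre mice and ACLYKO cells from Acly-fl/fl Cd4-cre mice, in which Cre recombinase made under the Cd4 promoter deletes the target in T cells, and WT cells from wild-type mice. The groups were GLUT3KO with acetate, GLUT3KO, ACLYKO with acetate, ACLYKO, WT with acetate and WT, with 3 libraries each. The labels give the genetic background as C57BL/6 for 12 samples and as C57BL/7 to C57BL/12 for 1 sample each, and do not give the age of the mice. Nor do they tell whether the 3 libraries of a group stem from different animals, so the p-values reflect only how these libraries spread, and that spread may be technical.

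Each ribosome joins a small subunit, which decodes the messenger RNA, to a large subunit, which forms the peptide bonds, and a stalk on the large subunit recruits the translation factors that hydrolyse GTP. Cells make most of these proteins in equal numbers and hold their messenger RNAs at high levels. Many of the messenger RNAs begin with a C followed by a run of pyrimidines, the 5′ terminal oligopyrimidine (TOP) tract, through which the kinase complex mTORC1 and the protein LARP1 adjust their translation and stability. T cells build up ribosomes when they leave the resting state.

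The starts of a few members are shown first because the TOP tract is the feature that this gene class shares in sequence. RefSeq promoter entries (GRCm38.p6, 250 bases before to 50 after an annotated start) were found for 67 of the 88 members. A C at the start followed by at least 4 pyrimidines stood at an annotated start of 15 of the 67, or 22.4%, against 3.01% of 27025 genes with an entry. These were 13 of 57 canonical members and 2 of 10 paralogs and look-alikes, so most members of either kind lacked a run there. The windows below run from 15 bases before the start to 15 bases from it onwards, 5′ to 3′ on the strand of the gene, and capitals mark the pyrimidine run.
Rps6, chr4:86857353-86857382, minus strand: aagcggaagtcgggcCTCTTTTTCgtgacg
Rpl14, chr9:120571502-120571531, plus strand: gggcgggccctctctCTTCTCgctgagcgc
Rpl28, chr7:4792950-4792979, plus strand: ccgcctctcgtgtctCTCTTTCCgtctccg
Rpl15, chr14:18270972-18271001, minus strand: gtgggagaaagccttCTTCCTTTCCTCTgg
Rplp2, chr7:141447636-141447665, plus strand: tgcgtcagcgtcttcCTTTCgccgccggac
Rps18, chr17:33955651-33955680, minus strand: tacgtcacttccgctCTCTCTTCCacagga
Rps27rt, chr9:114982725-114982754, minus strand: agaacttatcccttgCTTTCCggcggtgac
Rpl5, chr5:107900513-107900542, plus strand: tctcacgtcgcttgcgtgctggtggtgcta
Rpl22l1, chr3:28805493-28805522, plus strand: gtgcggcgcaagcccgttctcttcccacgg
Rpl36al, chr12:69184053-69184082, minus strand: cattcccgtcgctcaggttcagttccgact
Rpl7l1, chr17:46782642-46782671, minus strand: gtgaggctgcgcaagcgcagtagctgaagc
Among those shown the run was longest in Rpl15 and shortest in Rplp2. Rps27rt is a look-alike with a run, and Rpl5, Rpl22l1, Rpl36al and Rpl7l1 are shown as examples without one at the annotated base. An annotated start that is off by a few bases hides one. CCGGAAG, the core of an ETS factor motif, stood on either strand of the promoter window in 38.8% of members and 9.93% of all genes. CTTTC stood on the coding strand within 50 bases of the start in 52.2% of members and 14.6% of all genes, and it overlaps the TOP run where both occur. These motifs were chosen after the sequences were seen, and a match is no evidence of binding.

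The libraries held 18.7 to 30.1 M reads assigned to genes. Acly was at 7.01 to 14.4 TPM in ACLYKO libraries of both treatments, against 392 to 461 TPM in WT libraries of both treatments. Slc2a3 was at 4.0 to 13.6 TPM in GLUT3KO libraries and at 14.4 to 32.6 TPM in WT libraries, but ACLYKO replicate 1 also had 5.76 TPM. Of the T cell markers all 5 were detected in every library, with a summed level of 1166 to 2231 TPM, and the B cell, macrophage, NK cell, erythroid and neutrophil lists summed to at most 5.69 TPM in any library. The 2 CD8 T cell markers summed to 3.98 to 8.71 TPM in ACLYKO and to 10.1 to 19.9 TPM in the other 5 groups. The 5 Th17 markers summed to 2237 to 2603 TPM in GLUT3KO with acetate, 319 to 396 in GLUT3KO, 1072 to 1298 in ACLYKO with acetate, 389 to 510 in ACLYKO, 3117 to 4126 in WT with acetate and 1374 to 1578 in WT. They thus moved with genotype and with acetate, and their part in the results was not tested. Libraries differed inside their groups along 1 main axis, computed from the 14141 tested genes outside the symbol rule, that held 63.3% of the variance within groups. Each group's mean was taken out first, so the scores average 0 in every group and cannot be compared between groups. Its gene loadings correlated with GC content (Spearman rho = -0.43) and with exon length (0.35). A score above 3 set 5 libraries apart, GLUT3KO replicates 1 and 3, ACLYKO with acetate replicate 1, ACLYKO replicate 1 and WT replicate 1. Results that rest on them are given with and without them. The sign of the axis was set so that high scores go with low member levels, so leaving these libraries out favours higher member levels. The cutoff was one-sided. GLUT3KO replicate 3 scored only 3.92. GLUT3KO replicate 2 (-35.5), ACLYKO replicate 2 (-36.5) and ACLYKO replicate 3 (-53.1) lay farther from 0 than GLUT3KO replicate 1 (31.6) but were not set apart. RNA degradation, culture differences and library preparation as sources of this axis were not tested.

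The 88 members took a large and uneven share of the messenger RNA (in TPM, a level per length). Their summed share was 13.8%, 13.4% and 13.6% in the GLUT3KO libraries with acetate and 8.80%, 14.3% and 10.0% in the GLUT3KO libraries without it. In ACLYKO it was 13.5%, 19.6% and 18.7% with acetate and 9.16%, 15.6% and 18.7% without. In WT it was 21.0%, 21.6% and 21.2% with acetate and 14.5%, 21.6% and 21.6% without. All GLUT3KO libraries lay below all WT libraries of either treatment, although WT replicate 1 (14.5%) and GLUT3KO replicate 2 (14.3%) were close. With acetate the GLUT3KO and WT groups were tight and far apart, at 13.6 ± 0.167% and 21.3 ± 0.266% (SD, n = 3 each), while the groups without acetate had SDs of 2.89, 4.84 and 4.12 percentage points for GLUT3KO, ACLYKO and WT. Since TPM is a share of a library, a lower share and fewer ribosomal protein transcripts per cell cannot be told apart here.

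**Figure D1:**
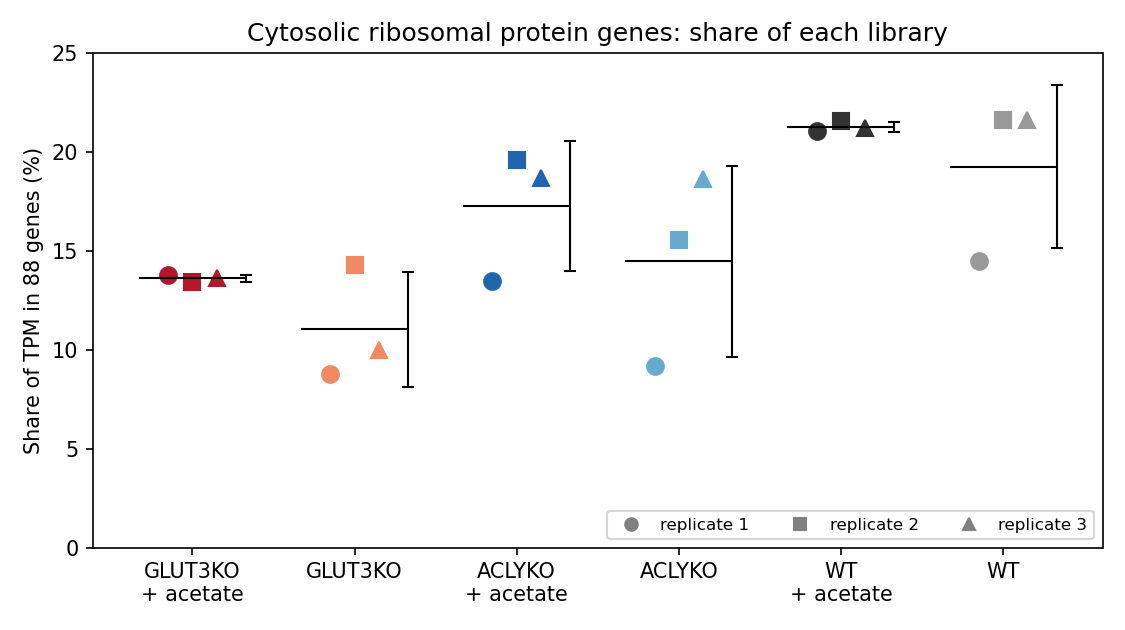
Summed share of each library's TPM held by the 88 ribosomal protein genes (y axis, percent), by group, with 1 point per library, the group mean as a line and the SD as a bar. The 3 GLUT3KO libraries with acetate sit at 13.4% to 13.8% and the 3 WT libraries with acetate at 21.0% to 21.6%.

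The low values within a group belonged to the libraries that stood apart. In each of the 4 groups that hold such a library, every one of them had a lower share than the other libraries of its group. The sign of the axis had been set so that high scores go with low member levels, so this direction was partly built in. The libraries that stood apart also had a different make-up of the set. The summed TPM of large subunit genes over that of small subunit genes was 1.64 and 1.47 in GLUT3KO replicates 1 and 3, 1.48 in ACLYKO replicate 1 with acetate, 1.93 in ACLYKO replicate 1 and 1.54 in WT replicate 1. It was 1.16 to 1.26 in the other 13 libraries. So small subunit messages were the lower ones, relative to the large subunit, in the 5 libraries. Rows annotated as pseudogenes of these proteins, 240 in the table, summed to 18.2% to 20.6% of the members' TPM in 17 libraries and to 29.6% in ACLYKO replicate 1. How reads that match a gene and its copies were counted was not stated in the labels or notes, so the levels of genes with many copies are uncertain.

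**Figure D2:**
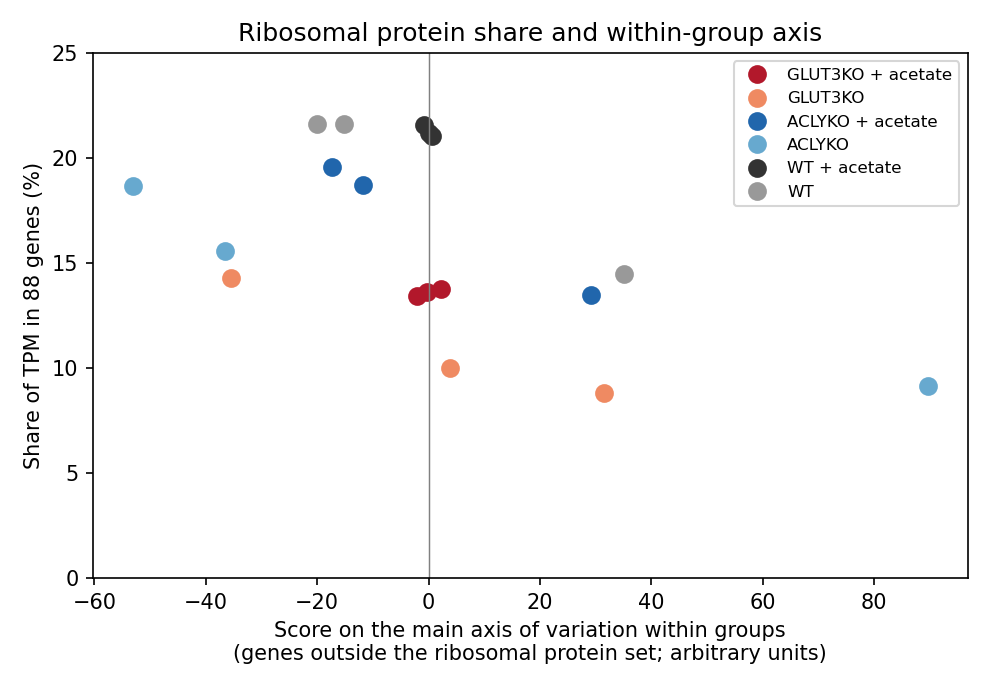
Share of TPM held by the 88 genes (y axis, percent) against each library's score on the axis that held most within-group variance (x axis, arbitrary units), computed from other genes, with 1 point per library coloured by group. The sign of the axis was set so that high scores go with low levels of the 88 genes. The 5 libraries with scores of 3.92 to 89.6 have shares of 8.80% to 14.5%. Each group's mean was taken out before the axis was computed, so scores average 0 in every group and do not compare groups.

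Members spanned a wide range of levels. Over all 18 libraries Rplp1 had the highest mean, 6108 TPM, followed by the large subunit genes Rpl12 and Rpl4 with 5721 and 5585 TPM, and the stalk protein gene Rplp0 with 5581 TPM. The order differed between groups, and Rpl4 led in GLUT3KO with acetate (4562 TPM), Rplp0 in GLUT3KO (4551 TPM) and Rpl12 in ACLYKO (7677 TPM). Among small subunit genes Rps18, Rps23 and Rps9 led with 4370, 3690 and 3396 TPM, and Rps15a and Rps20 were lowest with 315 and 332 TPM. The lowest large subunit genes were Rpl29 and Rpl22 with 230 and 326 TPM. The paralogs and look-alikes were lower, with a median of 158 TPM against 1687 TPM for the canonical members, and Rpl39l, a paralog best known from testis, was lowest with 1.56 TPM.

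Members also differed in how far they ranged across libraries. Rpl4, which lines the peptide exit tunnel, moved by 1.5-fold between its lowest and highest library and Rpl36al by 1.53-fold. At the other end Rps14 moved by 42.0-fold, Rplp1 by 36.3-fold and Rps27 by 29.1-fold, with the lowest value of each in ACLYKO replicate 1. Rps18, which is often used as a reference gene, ranged over 12.2-fold and Rplp0, another common reference, over 2.38-fold. Across the 18 libraries the correlation of a member's log2(TPM + 1) with the mean of the other members had a median of 0.92. It was lowest in Rpl19 (0.09) and Rpl5 (0.19), a description over libraries that share their groups and the main axis.

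Ribosomal protein messages were lower in GLUT3KO than in WT cells in both treatments. With acetate all 88 members had a negative change, with a median log2 change of -0.65 beside 0.08 over all tested genes, and in all 88 the 3 GLUT3KO libraries lay below the 3 WT libraries. Such separation downwards was seen in 29.9% of all tested genes. By limma, fitted over all 18 libraries with Benjamini-Hochberg adjustment over all tested genes, 23 members fell and 0 rose, where 9.50% of all tested genes were called lower, 20.9% higher and 30.4% called in either direction. The shared spread of that fit includes the libraries that stood apart. Fitted on these 2 groups alone, all 88 members were called lower (27.2% of all tested genes). Leaving out any 1 of the 6 libraries gave 12 or 13 calls in the fit over all groups, while the median change kept between -0.66 and -0.64.

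Without acetate the same direction was seen over a wider spread. All 88 members again had a negative change, with a median of -0.86 beside 0.17 over all tested genes. Here 32 members fell and 0 rose, where 8.47% of all tested genes were called lower, 24.9% higher and 33.4% in either direction. In 35 members the 3 GLUT3KO libraries lay below all WT libraries, which 14.2% of all tested genes did. Without the 5 libraries that stood apart, which leaves 1 GLUT3KO and 2 WT libraries, the median was -0.59 and 75 members fell (15.9% of all tested genes were called lower). The lone GLUT3KO library is then assumed to vary like the other groups. Leaving out single libraries gave 54 calls without WT replicate 1, 51 without GLUT3KO replicate 2, 15 without WT replicate 2, and 16 without GLUT3KO replicate 1, GLUT3KO replicate 3 or WT replicate 3. For single libraries left out, in this and the other comparisons, the share of all tested genes called is not given. Such counts therefore cannot be read as particular to the members.

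**Figure D3:**
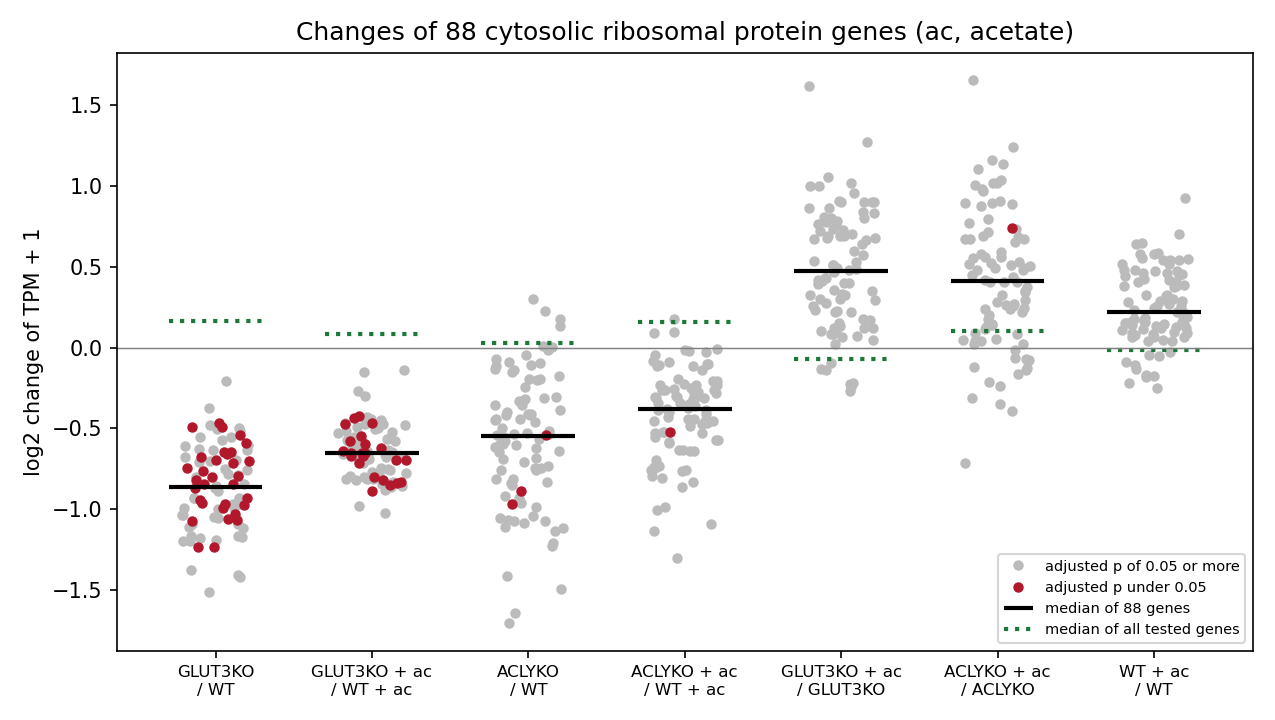
Log2 changes of TPM + 1 (y axis) of the 88 genes in 7 comparisons (x axis), with 1 point per gene, red where the limma adjusted p is under 0.05, the median of the 88 genes as a black line and that of all tested genes as a dotted line. All points lie below 0 in both comparisons of GLUT3KO with WT.

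Among large subunit genes, 20 of 43 fell under GLUT3 loss without acetate and 14 of 43 with acetate. Rpl14 (chromosome 9, 120571517 to 120574653, GRCm38.p6) had the smallest adjusted p in both. With acetate it had 1646, 1421 and 1562 TPM in GLUT3KO and 2726, 2791 and 2825 TPM in WT. Without acetate it had 1690, 1653 and 1738 TPM in GLUT3KO and 3123, 3175 and 2843 TPM in WT. The libraries of the genotypes did not overlap in either treatment, and GLUT3KO replicates 1 and 3 did not stand apart for this gene. The log2 change was -0.85 ± 0.12 (SE) in both treatments (limma adjusted p = 5.13e-05 with and 5.01e-05 without acetate). It kept its size without the 5 libraries, at -0.85 and -0.86.

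Rpl12, which sits at the base of the stalk, averaged 4061 ± 82.2 TPM in GLUT3KO and 6378 ± 246 TPM in WT with acetate (SD, n = 3 each). Without acetate it averaged 3859 ± 551 TPM in GLUT3KO and 6538 ± 749 TPM in WT. Its log2 changes were -0.65 ± 0.16 and -0.76 ± 0.16 (limma adjusted p = 0.00501 and 0.00150). Rpl32 had log2 changes of -0.64 ± 0.15 with and -0.71 ± 0.15 without acetate (limma adjusted p = 0.00368 and 0.00174). Without acetate, the calls of Rpl14 and Rpl12 were lost under quantile normalization (adjusted p = 0.0600 and 0.123) and under a correction for GC content and exon length (0.0721 and 0.179).

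Rpl5 and Rpl11 bind the 5S ribosomal RNA and, when free, inhibit the p53 ubiquitin ligase MDM2. Rpl11 had 607, 614 and 620 TPM in GLUT3KO and 1072, 1121 and 1103 TPM in WT with acetate, and fell with a log2 change of -0.84 ± 0.21 (limma adjusted p = 0.00734). It fell without acetate as well, by 0.97 on the log2 scale (limma adjusted p = 0.00269). Rpl5 had 1504, 1423 and 1423 TPM in GLUT3KO and 2028, 2170 and 2154 TPM in WT with acetate (log2 change -0.55 ± 0.17, limma adjusted p = 0.0255). Without acetate its groups overlapped, with 2131, 1396 and 1631 TPM in GLUT3KO and 2737, 1934 and 2004 TPM in WT (limma adjusted p = 0.107). In 4 of the 5 libraries that stood apart, ACLYKO replicate 1 being the exception, Rpl5 was higher than in the other libraries of its group.

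In the small subunit, 8 of 31 genes fell without acetate and 6 of 31 with acetate. Rps6 (chromosome 4, 86854099 to 86857367) encodes the substrate by which S6 kinase activity downstream of mTORC1 is commonly read. With acetate it had 1193, 1184 and 1227 TPM in GLUT3KO and 2055, 2154 and 2155 TPM in WT. Without acetate it had 912, 1322 and 1008 TPM in GLUT3KO and 1577, 2056 and 2171 TPM in WT. The genotypes did not overlap in either treatment, and the log2 changes were -0.82 ± 0.18 with and -0.84 ± 0.18 without acetate (limma adjusted p = 0.00256 and 0.00192). Rpsa, also known as the precursor of the laminin receptor, had log2 changes of -0.65 ± 0.39 and -0.86 ± 0.39 and did not pass (limma adjusted p = 0.240 and 0.106). Rps27a, made as a fusion with ubiquitin, had -0.44 ± 0.32 and -0.69 ± 0.32 (limma adjusted p = 0.334 and 0.109).

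Of the stalk proteins Rplp0, Rplp1 and Rplp2, Rplp0 fell with acetate. It had 4053, 3776 and 3873 TPM in GLUT3KO and 6161, 6246 and 6227 TPM in WT (log2 change -0.67 ± 0.24, limma adjusted p = 0.0476). Without acetate it had 4152, 4673 and 4829 TPM in GLUT3KO and 6979, 7154 and 6947 TPM in WT, groups that did not overlap either, but the change of -0.63 ± 0.24 missed the threshold (limma adjusted p = 0.0582). Rplp1 had 4481, 4323 and 4387 TPM in GLUT3KO and 9023, 8777 and 8260 TPM in WT with acetate. Its large changes, -0.98 with and -1.42 without acetate, came with SEs of 0.95, since Rplp1 was at 1710 and 2302 TPM in GLUT3KO replicates 1 and 3, at 4075 TPM in WT replicate 1 and at 288 TPM in ACLYKO replicate 1.

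**Figure D4:**
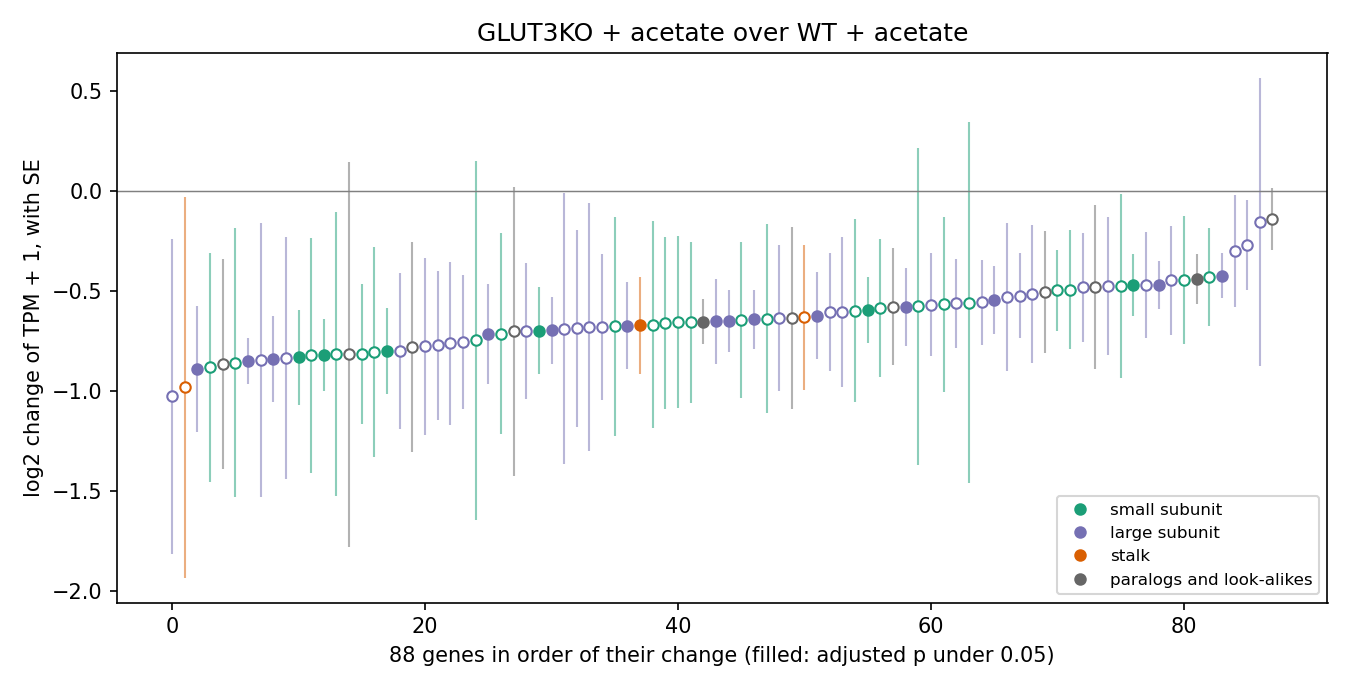
Log2 change of TPM + 1 in GLUT3KO over WT, both with acetate (y axis, with SE), of the 88 genes in order of their change (x axis), coloured by role, with filled points where the limma adjusted p is under 0.05. All changes lie between -1.03 and -0.14, and wide SEs mark genes that vary most in the libraries that stood apart.

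Paralogs and look-alikes did not move alike. Rpl7l1, a relative of Rpl7 whose yeast counterpart Rlp7 assembles ribosomes without staying in them, had 128, 120 and 130 TPM in GLUT3KO and 192, 196 and 207 TPM in WT with acetate. Without acetate it had 110, 106 and 123 TPM in GLUT3KO and 185, 180 and 173 TPM in WT. It fell with log2 changes of -0.65 ± 0.11 and -0.66 ± 0.11 (limma adjusted p = 3.86e-04 and 3.44e-04) and kept its call in all 19 alternatives of both treatments. Rpl7 itself fell by 0.67 and 0.70 on the log2 scale. Rps19bp1, whose product binds the small subunit protein RPS19, fell in both treatments (-0.44 and -0.50, limma adjusted p = 0.0143 and 0.00633). Rps19 had -0.82 ± 0.71 and -1.18 ± 0.71 and did not pass.

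Rpl36al stood at the other end. It had 702, 655 and 712 TPM in GLUT3KO and 765, 753 and 763 TPM in WT with acetate, and 561, 683 and 500 TPM in GLUT3KO and 596, 697 and 709 TPM in WT without it. The changes of -0.14 ± 0.15 and -0.21 ± 0.15 were the least negative of the 88 in both treatments and did not pass (limma adjusted p = 0.541 and 0.328). Its near copy Rpl36a fell by 0.89 and 1.07 on the log2 scale (limma adjusted p = 0.0437 and 0.0163). Each gene was also tested relative to the median of the canonical members in its library. By limma 0 members were called relative to that median in this comparison over all 18 libraries, where 34.1% of all tested genes were, and 0 in the other comparisons. Without the 5 libraries 20 members were called with acetate (76.3% of all tested genes), 15 below the median and 5 above it. Of all tested genes 4.01% were called below it and 72.3% above it. Centring on genes that were lower in GLUT3KO moves other genes up. Among the 20 members were Rpl36al, above the median by 0.46 ± 0.07, and Rpl36a, at -0.29 (limma adjusted p of Rpl36a = 0.00101). Rpl37a, Rplp1, Rpl14 and Rps6 also lay below the median, at -0.43, -0.38, -0.25 and -0.22, and Rpl10, Rpl15 and Rpl3 above it, at 0.44, 0.33 and 0.30.

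Rpl22l1 is a close relative of Rpl22, which mouse T cells need for normal development in the thymus. It had 384, 441 and 452 TPM in GLUT3KO and 731, 775 and 740 TPM in WT with acetate, groups that did not overlap. Without acetate it had 53.0, 539 and 89.4 TPM in GLUT3KO and 109, 743 and 749 TPM in WT, so that replicates 1 of both and replicate 3 of GLUT3KO were far below the rest. ACLYKO replicate 1 had 86.9 TPM with and 114 TPM without acetate. In these 5 libraries Rpl22l1 lay below Rpl22 (172 to 398 TPM), and in the 13 others above it. The log2 changes under GLUT3 loss, -0.82 with and -1.52 without acetate, had an SE of 0.96 and did not pass, while Rpl22 fell by 0.62 and 0.80 (limma adjusted p = 0.0429 and 0.0108). Rpl39l fell without acetate (-1.24 ± 0.29, limma adjusted p = 0.00435) at levels of 0.116 to 1.45 TPM in GLUT3KO and 2.32 to 3.34 TPM in WT, where its abundant relative Rpl39 had -1.41 ± 0.68 and did not pass. Rps27l and Rps27 did not pass either, with -0.71 ± 0.41 and -1.20 ± 0.90 without acetate.

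**Figure D5:**
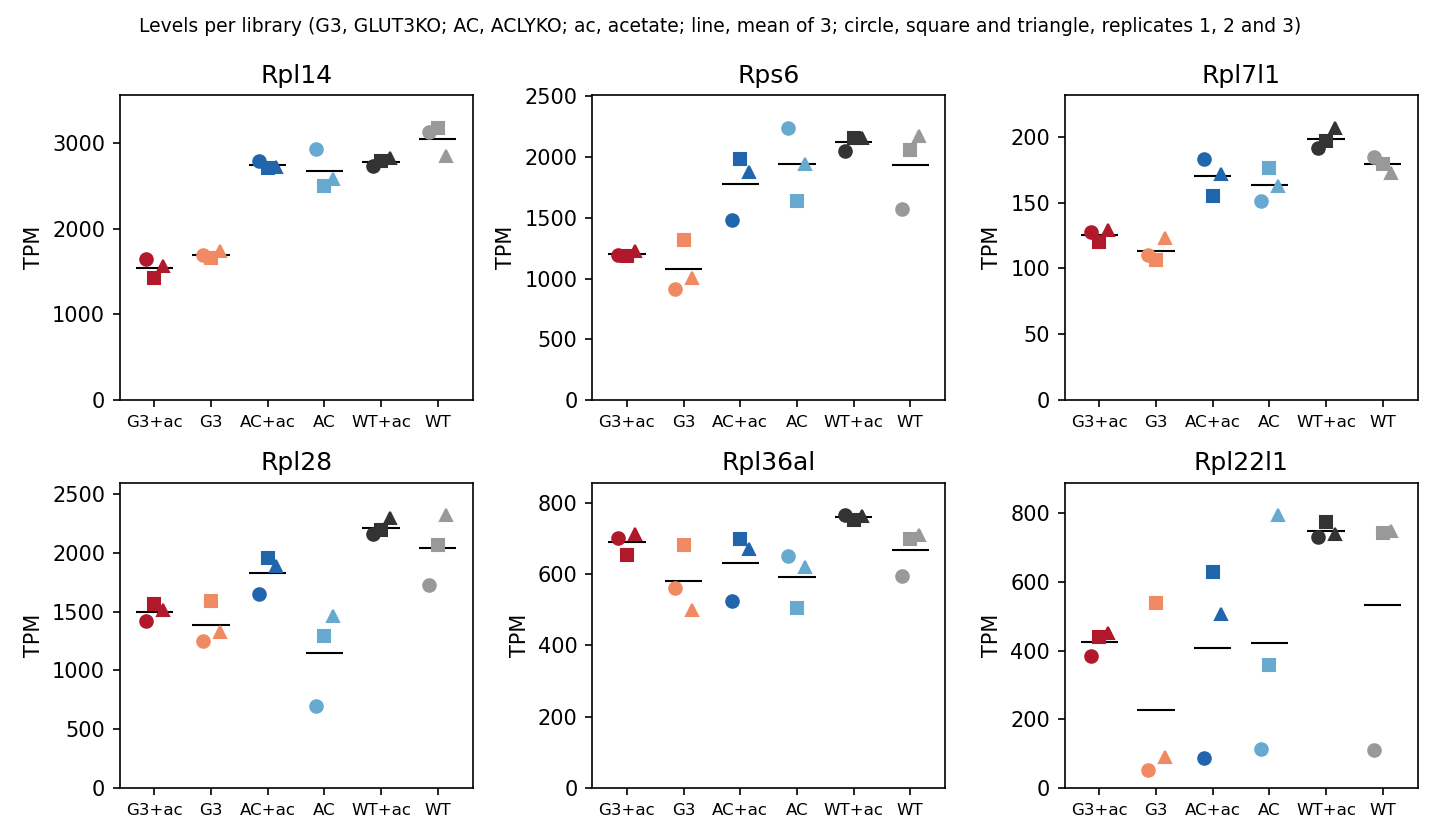
TPM (y axis) of Rpl14, Rps6, Rpl7l1, Rpl28, Rpl36al and Rpl22l1 in each library, by group (x axis), with circles, squares and triangles for replicates 1, 2 and 3 and the mean of 3 as a line. Rpl14 separates GLUT3KO from WT in both treatments, and Rpl22l1 is at 53.0 to 114 TPM in the 5 libraries that stood apart.

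In ACLYKO most changes were negative as well, but few passed. Without acetate 82 of 88 members had a negative change, with a median of -0.55 beside 0.03 over all tested genes. Rpl28, Rpl3 and Rpl5 fell and 0 members rose, where 6.38% of all tested genes were called lower, 12.7% higher and 19.1% in either direction. The labels state no pairing, but same-numbered libraries had correlated residuals here, and with replicate numbers as a block 10 members fell (8.06% of all tested genes called lower). The median was -0.17 without ACLYKO replicate 1 and -0.83 without ACLYKO replicate 3. Without the 5 libraries it was -0.41 and 68 members fell, where 14.4% of all tested genes were called lower. Single libraries moved the count of 3 to 0 without WT replicate 3, 2 without WT replicate 2, 4 without WT replicate 1 or ACLYKO replicate 1, 9 without ACLYKO replicate 2 and 20 without ACLYKO replicate 3.

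Rpl28, a large subunit protein that baker's yeast lacks, had 693, 1289 and 1462 TPM in ACLYKO and 1728, 2068 and 2319 TPM in WT without acetate. The groups did not overlap, and the log2 change was -0.89 ± 0.22 (limma adjusted p = 0.0112). The call was lost in a fit of these 2 groups alone (adjusted p = 0.270) and without WT replicate 3 (0.0555). Rpl3, a protein near the peptidyl transferase centre, had 934, 2581 and 2636 TPM in ACLYKO and 3467, 3700 and 3723 TPM in WT (log2 change -0.97 ± 0.28, limma adjusted p = 0.0252). It lost the call without WT replicate 2 or 3 (adjusted p = 0.0751 for each), under quantile normalization (0.0852) and with only the groups compared (0.352). Rpl5 had 1494, 1531 and 1500 TPM in ACLYKO (log2 change -0.54 ± 0.17, limma adjusted p = 0.0384) and lost the call in 7 of 19 alternatives, with adjusted p up to 0.401, among them leaving out ACLYKO replicate 2 or 3 or WT replicate 1 or 3, only the groups compared and quantile normalization. Rpl12 and Rps27l were the members farthest above the median, with 0.23 ± 0.16 and 0.30 ± 0.41, and neither passed.

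With acetate a single member passed between ACLYKO and WT. The median change was -0.38 beside 0.16 over all tested genes, 85 of 88 changes were negative, and in 67 members all ACLYKO libraries lay below all WT libraries (15.2% of all tested genes did). Rps19bp1 fell, with 54.8, 59.8 and 51.2 TPM in ACLYKO and 72.5, 85.8 and 81.1 TPM in WT, and 0 members rose. That single call (log2 change -0.52 ± 0.12, limma adjusted p = 0.0111) compares with 1.98% of all tested genes called lower, 11.5% higher and 13.5% in either direction. It was lost in 3 of 19 alternatives, among them without ACLYKO replicate 3 (adjusted p = 0.0558) and without WT replicate 2 (0.0644), both with acetate. Without the 5 libraries, ACLYKO replicate 1 with acetate among them, the median was -0.20, 25 members fell and 1 rose (9.42% of all tested genes called lower, 28.4% higher).

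Within a genotype most members were higher with acetate, 81 of 88 in GLUT3KO, 74 in ACLYKO and 77 in WT, but few changes passed with equal library weights. With arrayWeights 80, 34 and 1 members were called in either direction in GLUT3KO, ACLYKO and WT, where 68.3%, 45.5% and 33.2% of all tested genes were. In GLUT3KO 0 members were called over all libraries, where 12.7% of all tested genes were, and 4 members had an unadjusted p under 0.05. The median change was 0.47 beside -0.07 over all tested genes. Without GLUT3KO replicates 1 and 3 and the 3 other libraries that stood apart it was -0.051, which rests on 1 untreated GLUT3KO library. In WT 0 members were called, against 6.50% of all tested genes, and 0 had an unadjusted p under 0.05. The WT median of 0.22 was 0.01 without WT replicate 1. Leaving out GLUT3KO replicate 2 instead gave 7 members higher in GLUT3KO, and leaving out the 5 libraries gave Rplp0 lower in WT (13.1% of all tested genes called lower). Voom on reads recovered from the TPM also called 0 members in either genotype.

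In ACLYKO, Rpl28 rose with acetate, with 1652, 1954 and 1887 TPM in treated and 693, 1289 and 1462 TPM in untreated libraries (log2 change 0.74 ± 0.22, limma adjusted p = 0.0317). It was the only one of 88 members called, where 11.7% of all tested genes were called higher and 17.3% in either direction. The call was lost in 5 of 19 alternatives, a fit of only the groups compared among them. It was also lost without ACLYKO replicate 1 (log2 change 0.41, adjusted p = 0.0530) and without replicate 2 or 3 with acetate (0.103 and 0.0955). The median change of the members was 0.41 beside 0.10 over all tested genes, and 0.02 without ACLYKO replicate 1, where 1 member was called, lower. Leaving out untreated ACLYKO replicate 2 or 3 gave 5 or 9 calls, and leaving out the 5 libraries gave 35 members higher and Rplp0 lower (18.1% of all tested genes called higher, 22.5% lower).

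No difference in the acetate change between genotypes passed for a member in the limma fit with equal library weights. With arrayWeights 61 members passed for GLUT3KO (45.1% of all tested genes) and 2 for ACLYKO (12.9%). With the axis score as a covariate 3 (5.19%) and 19 (11.1%) passed, but that score was taken from the spread of these same libraries. For GLUT3KO minus WT 0 of 88 members passed, where 0.773% of all tested genes did, and 0 had an unadjusted p under 0.05. For ACLYKO minus WT 0 passed, where 1.34% of all tested genes did, and 3 had an unadjusted p under 0.05. Without the 5 libraries 0 members passed for GLUT3KO (3.19% of all tested genes) and 3 for ACLYKO, all higher (3.13% of all tested genes called higher). The median differences were 0.24 and 0.17 on the log2 scale, with a median SE of 0.49 per gene, and a p that misses the threshold does not show that the changes were equal. The medians turned to -0.068 for GLUT3KO without the 5 libraries and to -0.22 for ACLYKO without ACLYKO replicate 1. Both differences share the WT libraries.

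Rack1 and Fau, which the symbols miss, had negative changes as well. Rack1, a signalling scaffold on the small subunit, averaged 3453 ± 72.0 TPM in GLUT3KO and 5093 ± 132 TPM in WT with acetate (SD, n = 3 each). Its log2 change of -0.56 ± 0.43 did not pass (limma adjusted p = 0.370). Fau, made as a fusion with a ubiquitin-like protein, had -0.26 ± 0.50 in that comparison. Neither Rack1 nor Fau was called by limma in any of the 9 comparisons.

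Other translation genes moved in both directions. Of 22 further genes with TOP messages, 4 fell and 1 rose under GLUT3 loss without acetate (median -0.44), and 3 fell and 1 rose with acetate (median -0.33). Eef1g, a subunit of elongation factor 1, fell in both (-0.69 and -0.60, limma adjusted p = 1.27e-04 and 4.54e-04). Vim, an intermediate filament gene, rose in both (1.64 and 1.57). Of 30 initiation factors 6 fell and 0 rose without acetate (median -0.09), led by Eif2b3, a subunit of the eIF2 exchange factor (-0.96 ± 0.13, limma adjusted p = 4.90e-05). With acetate 3 fell and 2 rose (median 0.01). These medians stand beside 0.17 and 0.08 over all tested genes without and with acetate, and the counts beside 8.47% called lower and 24.9% called higher without acetate and 9.50% and 20.9% with it.

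Of the genes that make or import ribosomes some fell, where 8.47% of all tested genes were called lower and 24.9% higher without acetate, and 9.50% and 20.9% with it. Of 26 chaperones, importers and assembly factors of ribosomal proteins, 8 fell and 1 rose without acetate and 5 fell and 0 rose with acetate under GLUT3 loss. Tsr2, which carries Rps26 in yeast, had -0.86 ± 0.19 without acetate (limma adjusted p = 0.00280) and Grwd1, a chaperone of Rpl3, -1.25 ± 0.29 (0.00382). Of 20 genes of RNA polymerase I transcription, 7 fell and 1 rose without acetate and 5 fell and 0 rose with it. Polr1b, the second largest subunit, had -1.61 ± 0.21 without and -1.16 ± 0.21 with acetate (limma adjusted p = 4.07e-05 and 7.41e-04). Myc, a driver of ribosome synthesis, had 236 ± 7.36 TPM in GLUT3KO and 548 ± 35.1 TPM in WT with acetate, and 167 ± 47.0 TPM in GLUT3KO and 359 ± 62.3 TPM in WT without it (SD, n = 3 each). Under ACLY loss without acetate Myc was higher instead, by 0.65 ± 0.21 (limma adjusted p = 0.0425).

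Some of the regulators around mTORC1 rose in GLUT3KO. Of 26 tested genes of mTORC1 and of TOP messages, 12 rose and 1 fell without acetate (median 0.55) and 12 rose and 0 fell with acetate (median 0.50), where 24.9% and 20.9% of all tested genes were called higher. Rragd, which encodes a Rag GTPase that ties mTORC1 to the lysosome, rose by 2.15 ± 0.20 without and 1.35 ± 0.20 with acetate (limma adjusted p = 1.46e-06 and 1.23e-04). Castor1, which encodes an arginine sensor of mTORC1, fell without acetate (-1.34 ± 0.37, limma adjusted p = 0.0110). Sesn1, an mTORC1 inhibitor that senses leucine, rose by 0.92 ± 0.15 and 0.72 ± 0.15 (limma adjusted p = 2.06e-04 and 0.00162). Of 20 genes of ribosome quality control 4 rose and 1 fell in each treatment. Over all tested genes 24.9% and 20.9% were called higher and 8.47% and 9.50% lower, without and with acetate. Gtpbp2, which rescues stalled ribosomes, led this list (1.18 ± 0.17 without and 1.56 ± 0.17 with acetate). Under ACLY loss without acetate the mTORC1 and quality control lists had 0 and 1 members higher and 2 and 1 lower, where 12.7% of all tested genes were called higher and 6.38% lower. The abundance of messages says nothing of the activity of the proteins.

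Outside the symbol rule, the protein-coding genes whose log2(TPM + 1) over the 18 libraries was most like the mean of the members were Eef1b2 (Pearson r = 0.99), an elongation factor gene with a TOP message, Prdx3 (0.98), a mitochondrial peroxidase, and Mrpl30 (0.98), a mitochondrial ribosomal protein. Eef1b2 had 960, 898 and 899 TPM in GLUT3KO and 1288, 1315 and 1392 TPM in WT with acetate, so its libraries separated as those of the members did. The members were short, with a median of 782 bases of exons against 2835 bases over all tested genes. Across the 88 genes, which are not independent, the change in GLUT3KO against WT had a Spearman rho with exon length of 0.14 with and 0.28 without acetate, and with GC content of -0.14 and -0.07. For ACLYKO against WT the rho was 0.22 with and 0.20 without acetate for exon length, and 0.03 and -0.38 for GC content. For acetate it was -0.33 in GLUT3KO, -0.20 in ACLYKO and -0.31 in WT for exon length, and -0.02, 0.39 and 0.00 for GC content.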

How the data were processed

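Messenger RNA was sequenced from 18 libraries. Per the labels' protocols, stranded libraries were made from 500 ng of RNA (RIN over 7.8) and sequenced as single reads of 75 nt. The submitters' processing notes name STAR 2.7.2b, the GRCm38.p6 build, featureCounts 1.6.4, cutadapt, DESeq2 and bcl2fastq 2.20.0.422. The strand setting and the handling of reads with several matches are not given in the sources used here. The table deposited by the authors holds TPM and exon length in bases, each an other unit than counts, for 45703 genes. TPM times exon length gave whole reads in 100% of values under 500 reads, within 0.01 reads. No intervals for counting error are given, since the libraries carry no molecular identifiers.

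Genes with at least 1 TPM in at least 3 libraries were tested. The main test was limma 3.58.1 (R 4.3.3, trend and robust) on log2(TPM + 1) with a mean for each of the 6 groups, all libraries sharing one spread. Benjamini-Hochberg adjustment ran over 14229 genes in each of 9 comparisons. The pseudocount of 1 understates changes of low genes. The test was tested on simulated data. The members and the gene lists were chosen with earlier results of these data known. Named genes are the highest and lowest members per role, up to 3 called members per direction and comparison, up to 3 farthest from the members' median, fixed paralog pairs, 9 fixed genes, and up to 3 called genes of each other list. Rps14 was named after its values were seen. A few genes are not reported here.

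Same-numbered libraries had residual correlations above 0.1 in every pair for acetate within each genotype and for ACLYKO against WT without acetate (0.285 to 0.577), so the numbers were taken to pair these. They did not for GLUT3KO against WT without acetate (0.721, 0.622 and -0.354) or for either genotype against WT with acetate, where the block is only an alternative setting. The labels state no pairing, it was inferred from these same data, and the main test left it out. ACLYKO replicate 1 and WT replicate 1 both stood apart on the main axis, so their correlation may reflect that axis. Alternatives were another pseudocount, other filters, median-ratio scaling, scaling to genes outside the rule, quantile normalization, only the groups compared, arrayWeights, a replicate block, a minimum change, voom, a correction for GC content and exon length, and leaving out each library. Leaving out the 5 libraries, the axis score as a covariate and centring on the members' median were added after seeing the data. The axis score is centred within each group and was taken from the spread of these same libraries. As a covariate it leaves every log2 change as it was and only takes out spread, so its counts are no separate test.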

Additional observations from a re-analysis of the deposited data

Results flagged for a closer look

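For 2 members the libraries moved one way with acetate in one genotype and the opposite way in another. The labels state no pairing of libraries with and without acetate. The share of all tested genes that move so was not counted, so the 2 cannot be read as particular to the members. Rpl3 changed by 0.77 with acetate in ACLYKO and by 0.22 in GLUT3KO, against -0.11 in WT (log2 scale). The difference between ACLYKO and WT did not pass (0.88 ± 0.40, limma adjusted p = 0.427), nor did that between GLUT3KO and WT (0.33, limma adjusted p = 1.00). ACLYKO replicate 1, which stood apart, had 934 TPM of Rpl3 without acetate, against 2581 and 2636 TPM in the other 2 libraries of its group. Rps19bp1 changed by 0.22 with acetate in GLUT3KO and by -0.22 in ACLYKO, and the difference between these genotypes was not tested.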

How the results depend on the processing

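The median change in GLUT3KO or ACLYKO against WT kept its negative sign under the alternatives run, and no alternative called a member higher in GLUT3KO than in WT. The axis score as a covariate could not change a median, since it is centred within groups. It only takes out spread found in these same libraries, so its counts are no separate test. Counts of members called in either direction moved more, and are given with the share of all tested genes called in parentheses. For single libraries left out that share is not given. Between GLUT3KO and WT without acetate the count of 32 (33.4%) was 56 with median-ratio scaling (34.1%), 12 with quantile normalization (35.0%), 88 with arrayWeights (74.7%), 57 with the replicate block (39.4%), 75 without the 5 libraries (53.3%), 84 with the axis score as a covariate (58.4%), and 15 to 54 without single libraries. With acetate the count of 23 (30.4%) was 10 with quantile normalization (33.7%), 88 with only the groups compared (66.0%), 87 with arrayWeights (70.3%), 86 without the 5 libraries (65.7%), 73 with the axis score (53.8%), and 12 to 13 without single libraries. Between ACLYKO and WT without acetate the count of 3 (19.1%) was 11 with median-ratio scaling (21.8%), 19 with the GC and length correction (25.8%), 0 with only the groups compared (2.40%), 57 with arrayWeights (48.5%), 10 with the replicate block (23.1%), 68 without the 5 libraries (49.7%), 62 with the axis score (48.1%), and 0 to 20 without single libraries. With acetate the count of 1 (13.5%) was 3 with median-ratio scaling (11.7%) or the GC and length correction (14.5%), 2 with only the groups compared (24.3%) or the replicate block (16.3%), 43 with arrayWeights (55.1%), 26 without the 5 libraries (37.8%), 45 with the axis score (39.2%), and 0 to 1 without single libraries. For acetate in GLUT3KO the count of 0 (12.7%) was 80 with arrayWeights (68.3%), 50 with the axis score (45.7%), 1 with the GC and length correction (17.3%), and 0 to 7 without single libraries. In ACLYKO the count of 1 (17.3%) was 34 with arrayWeights (45.5%), 36 without the 5 libraries (40.6%), 49 with the axis score (46.5%), 3 with the GC and length correction (22.5%), 0 with only the groups compared (2.98%), and 0 to 9 without single libraries. In WT the count of 0 (6.50%) was 1 with arrayWeights (33.2%), 1 without the 5 libraries (27.3%), 22 with the axis score (28.6%), and 0 without single libraries. For the difference in acetate change from WT, arrayWeights gave 61 (45.1%) and the axis score 3 (5.19%) for GLUT3KO, and for ACLYKO arrayWeights gave 2 (12.9%), leaving out the 5 libraries 3 (7.18%) and the axis score 19 (11.1%). Relative to the members' median, where 0 were called, leaving out the 5 libraries gave 20 (76.3%) for GLUT3KO with acetate, 27 (63.2%) and 9 (44.1%) for ACLYKO without and with acetate, and 20 (37.8%) for acetate in ACLYKO. The 76.3% was 72.3% higher and 4.01% lower. Members also departed from the median for GLUT3KO against WT without acetate (Rpl36al by 0.43) and for acetate in GLUT3KO (Rpl15 by 0.38). Both then rest on 1 untreated GLUT3KO library. The median reversed to -0.051 for acetate in GLUT3KO and -0.068 for its difference from WT without the 5 libraries, and to -0.22 for the ACLYKO difference without ACLYKO replicate 1 (-0.22 to 0.43 without single libraries). The cause of these shifts was not tested.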
